A study of Homo sapiens with 4 samples.

Results

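The 10 genes described here encode chaperones, folding enzymes and control proteins of the endoplasmic reticulum (ER): HSPA5, HSP90B1, CALR, DNAJB9, ERO1L, PDIA4, PDIA6, XBP1, HERPUD1 and SEL1L. They were chosen by symbol, with earlier results of these data known, from a table of 62077 rows. Each of the 10 had 1 row on an assembled chromosome. All 10 had a mean level of at least 1 FPKM (fragments scaled by exon length and library depth), the limit that left 15057 genes for the comparisons. RNA-Seq had been performed on FaDu cells, an established epithelial line of a hypopharyngeal squamous carcinoma, to find the genes whose hypoxic expression depended on TET1, a dioxygenase that oxidizes 5-methylcytosine in DNA. All cells carried a lentiviral pLKO.1-puro hairpin, which was either the scrambled control (scr) or directed at TET1 (TET1-si), and the study's methods describe infected cells that were used within days. They were kept in normoxia (air with 5% CO2; N-scr and N-si) or for 19 h in hypoxia (1% O2, 5% CO2 and 94% N2; H-scr and H-si). Each of the 4 groups was 1 library, so that every difference below is between single libraries, has no replicate check and carries no p-value. The intervals given are 95% counting intervals from approximate reads, exact Clopper-Pearson ones save where 1 response was subtracted from another. They cover counting error only, not the spread between cultures or between knockdown lines.

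Proteins that enter the secretory pathway are folded in the ER by chaperones and by enzymes that form disulfide bonds, and those that fail to fold are sent back to the cytosol for ER-associated degradation. When unfolded proteins accumulate, the sensors ATF6, IRE1 (ERN1) and PERK (EIF2AK3) start the unfolded protein response (UPR), in which ATF6 and the spliced form of XBP1 raise transcription of chaperone and degradation genes while PERK slows translation. Disulfide bond formation in this compartment uses oxygen as its terminal electron acceptor, and ERO1L is a known target of hypoxia-inducible factors. Splicing of XBP1 and cleavage of ATF6, which switch these factors on, cannot be seen in values summed per gene.

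ATF6 with the factor NF-Y, and also XBP1, act on a DNA element called the ER stress response element (ERSE), in which CCAAT and CCACG stand 9 bases apart. The element is shown because it is what several of these promoters share. The genes were chosen as members of the response that acts through it, so their choice was not independent of the element. RefSeq promoter windows, from 250 bases before to 50 bases after a start site in the GRCh38.p14 table, were found for 10 of the 10 genes (13 windows) and were placed on hg19 by exact match. Both strands were searched, and capitals mark the fixed letters of the element.
HSPA5, chr9:128003670-128003688: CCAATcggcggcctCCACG
HSP90B1 (distal), chr12:104323994-104324012: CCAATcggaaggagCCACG
HSP90B1 (proximal), chr12:104324099-104324117: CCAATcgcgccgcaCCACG
CALR, chr19:13049198-13049216: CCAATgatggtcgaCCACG
PDIA6, chr2:10952979-10952997: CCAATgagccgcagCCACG
XBP1, chr22:29196591-29196609: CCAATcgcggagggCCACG
HERPUD1, chr16:56965937-56965947: ATTGGgCCACG

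The first 6 lines are ERSE matches, in 5 of the 10 genes, and the last is a match to the shorter element ERSE-II, in which ATTGG and CCACG stand 1 base apart. Among all 35116 windows, 27 held an ERSE (0.0769%) and 19 an ERSE-II (0.0541%). Of 81 other genes of ER protein folding and degradation with a window, 3 held an ERSE and 2 an ERSE-II. With the first transcribed base as 1, the ERSE lay at bases -66 to -48 in HSPA5 and at -52 to -34 in XBP1. HSP90B1 held a pair, at bases -194 to -176 on the strand of the gene and at -89 to -71 on the other strand. The CALR match, at -225 to -207, was also on the other strand. The PDIA6 match, at -86 to -68, belonged to the window of its downstream start site, and the window of its upstream start held none. ERSE-II of HERPUD1 lay at -117 to -107. DNAJB9, ERO1L, PDIA4 and SEL1L held neither element in these windows. The UPR element core TGACGTGG was found in 0 of the 10 genes, in 9 of 81 other genes of ER protein folding and degradation with a window, and in 0.729% of all windows.

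The core of a hypoxia response element, ACGTG or GCGTG, was found in 9 of the 10 genes, all but HSPA5. ACGTG was in 7 of the 10, in 46 of the 81 other ER genes and in 24.9% of all genes with a window. GCGTG was in 6 of the 10, in 57 of the 81 and in 40.6% of all genes. The share of all genes with either core was not counted. Over all windows, 21.4% held ACGTG and 36.5% held GCGTG, so that these short letters are common. They also overlap the ERSE, since its last letters, read on the opposite strand, can form part of such a core. This was so at -179 to -175 and -90 to -86 in HSP90B1, -226 to -222 in CALR, -37 to -33 in XBP1 and, for ERSE-II, -110 to -106 in HERPUD1. A match is a description of letters and is not evidence that a factor bound there.

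**Figure D1:**
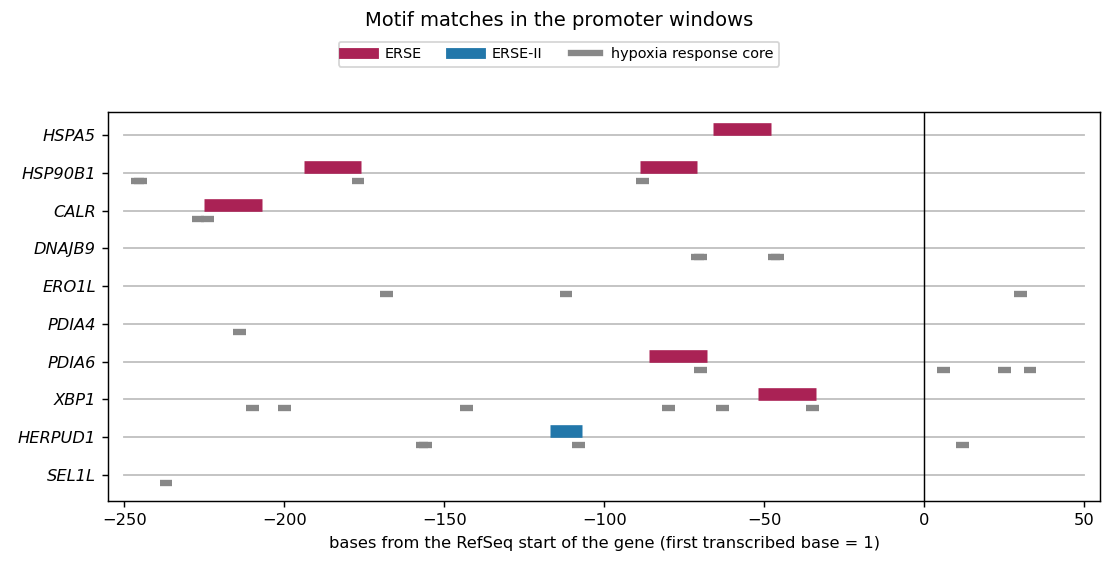
Positions of motif matches in the promoter windows of the 10 genes, in bases from the RefSeq start (x axis). Red bars are ERSE matches, the blue bar is ERSE-II and grey bars are cores of hypoxia response elements. ERSE bars appear for HSPA5, HSP90B1 (2 bars), CALR, PDIA6 and XBP1, and for windows of genes with more than 1 start all matches are drawn on 1 line.

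Depth and labels were checked once for the series. The approximate depths ran from 22540000 reads (H-si) to 24640000 (H-scr). TET1 was listed at 0.129 FPKM in scrambled and 0.0493 in TET1-si cells under normoxia and at 0.331 and 0.122 under hypoxia, a low level throughout. Hypoxia check genes were higher in both hypoxic libraries in 10 of 10 cases, among them NDRG1, a hypoxia-inducible stress gene, at 15.9 and 497.0 FPKM in scrambled and 28.0 and 578.6 in TET1-si cells. CA9, VEGFA and EGLN3 were also higher in hypoxia with either hairpin. The epithelial markers EPCAM and CDH1 were present in all 4 libraries (101.6 to 205.9 and 179.3 to 398.9 FPKM). The 8 epithelial markers summed to 7492 FPKM under normoxia and 10194 under hypoxia in scrambled cells but to 2707 and 4676 in TET1-si cells. The keratins KRT5, KRT8, KRT17 and KRT18 made up most of these sums and were lower in TET1-si cells in both oxygen states, whereas CDH1 (log2 differences of 0.57 under normoxia and 0.45 under hypoxia), EPCAM (0.41 and 0.68) and JUP (0.50 and 0.27) were higher there. TP63 stood at -0.27 under normoxia and -0.04 under hypoxia. The part of these epithelial markers in the TET1-si differences below was not tested. Of the markers of leukocytes, endothelium, fibroblasts and hepatocytes, CD3E, LUM and COL1A2 were at 0 in all 4 libraries and PTPRC in 3 of them. COL1A1 went from 5.29 FPKM (N-scr) to 37.0 (H-si), and CD68 was at 19.8 to 26.8. The endothelial marker VWF went from 0.160 FPKM (N-scr) to 2.94 (H-si). The 11 of these 12 markers with a usable row summed to 26.7 FPKM in normoxia and 50.4 in hypoxia in scrambled cells and to 41.1 and 67.1 in TET1-si cells. They were lowest in N-scr and highest in H-si, and their part in the differences below was not tested.

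Of the 10 genes, 8 stood between the 72.8 and 98.9 percentiles of the protein-coding genes tested in every library, XBP1 between 50.6 and 69.2 and DNAJB9 between 27.2 and 32.1. On the FPKM scale, which is per length, HSP90B1 and CALR were the highest and together supplied 53.5% to 60.5% of the summed level of the 10. The sum was 2283 FPKM under normoxia and 1899 under hypoxia in scrambled cells, against 1744 and 1548 in TET1-si cells. The order HSP90B1, CALR, PDIA6, HSPA5 held in both scrambled libraries, while in both TET1-si libraries CALR stood above HSP90B1. XBP1 and DNAJB9 were the lowest members in every library. N-scr held the highest value for 5 of the 10 genes (20.8% of all genes tested had their highest value there), and H-si held the lowest for 7 of the 10 (25.9% of all genes tested).

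**Figure D2:**
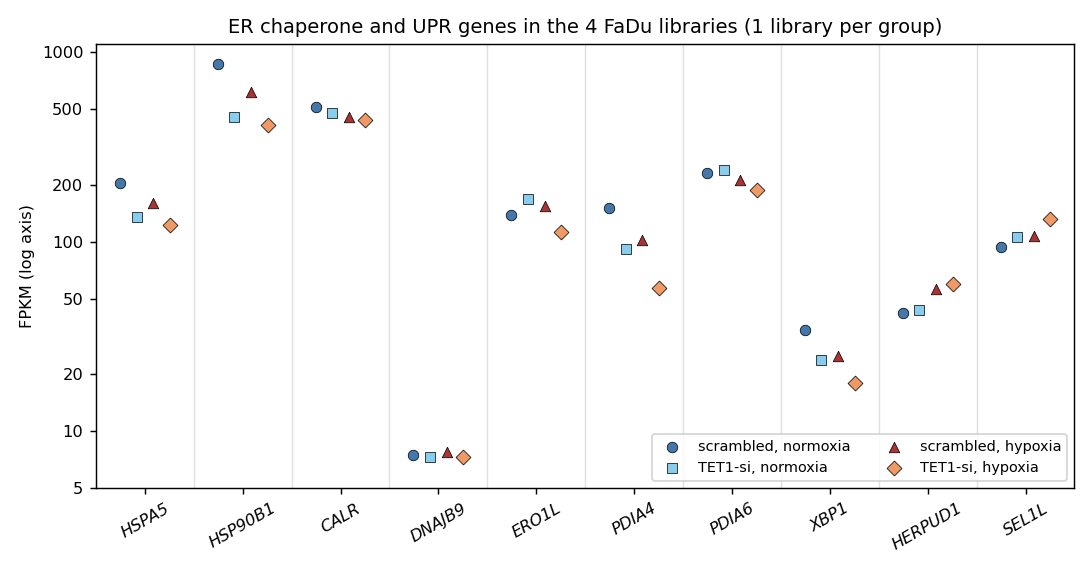
FPKM of the 10 genes on a log axis, 1 symbol for each of the 4 libraries and no error bars, since each group is 1 library. HSP90B1 ranges from 869.3 in N-scr to 412.1 in H-si and DNAJB9 stays between 7.26 and 7.72.

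In both kinds of cells the hypoxic library held less HSPA5, HSP90B1, CALR, PDIA4, PDIA6 and XBP1 and more of the degradation genes HERPUD1 and SEL1L, while ERO1L went opposite ways and DNAJB9 hardly differed. No member reached 2-fold in the hypoxia response of scrambled cells, where 17.4% of all genes did in either direction, nor in that of TET1-si cells, where 21.2% did. Likewise 0 of the 10 reached 2-fold between TET1-si and scrambled cells, against 20.4% of all genes under hypoxia and 17.7% under normoxia. At 1.5-fold, 0 members were lower in the hypoxia response of scrambled cells (13.7% of all genes), and PDIA4 alone was lower in that of TET1-si cells (19% of all genes). HSP90B1 and PDIA4 were lower by that much in TET1-si cells under hypoxia (16.8% of all genes). HSPA5, HSP90B1 and PDIA4 were so under normoxia (12% of all genes). No member was 1.5-fold higher in any of these 4 comparisons, where 23.2%, 23.7%, 24.3% and 24.7% of all genes were. These counts are of 10 genes only and are not read as a difference from all genes tested. What follows describes differences without any measure of the spread between cultures, most but not all of them beyond counting error. The comparisons share libraries, since each hypoxia response has 1 library in common with each TET1-si response, and they are not independent of each other.

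**Figure D3:**
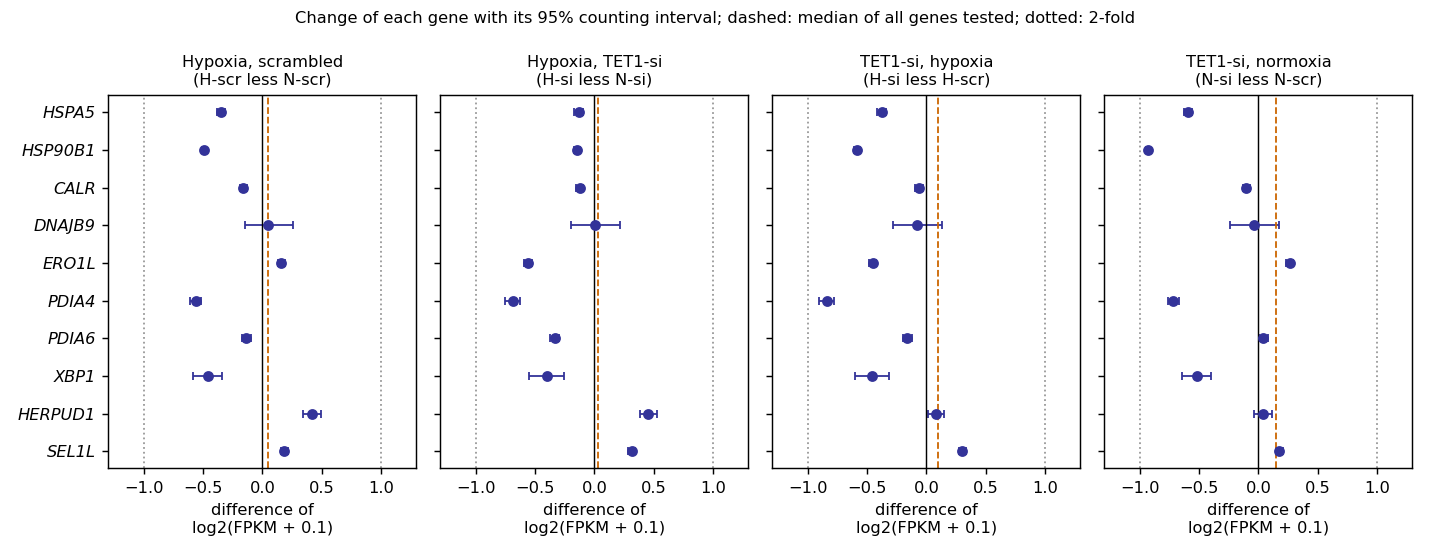
Differences of log2(FPKM + 0.1) for the 10 genes in the 4 comparisons (x axes), with 95% counting intervals as bars. The dashed line is the median of all genes tested and the dotted lines mark 2-fold. All 10 points lie inside the dotted lines in each panel, and the bars of DNAJB9 cross 0 in all 4.

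HSPA5 (ENSG00000044574, also called BiP, chr9:127997132-128003609, minus strand) is the Hsp70 of the ER, which binds unfolded chains and holds the UPR sensors inactive. Scrambled cells had 203.6 FPKM under normoxia and 159.9 under hypoxia, and TET1-si cells 134.7 and 123.0. The 2 scrambled libraries were thus the higher, and within each hairpin the hypoxic library was the lower. The log2 difference with hypoxia was -0.35 in scrambled cells (-0.38 to -0.32) and -0.13 in TET1-si cells (-0.17 to -0.09), the latter turning to 0.01 when every column was rescaled to the same sum (TPM). TET1-si cells were 1.51-fold lower than scrambled cells under normoxia, and under hypoxia the log2 difference was -0.38 (-0.41 to -0.34).

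HSP90B1 (ENSG00000166598, GRP94, chr12:104323885-104347423, plus strand) is the Hsp90 of the ER and folds integrins and Toll-like receptors among its clients. Its level was 869.3 FPKM under normoxia and 618.4 under hypoxia with the scrambled hairpin, and 455.8 and 412.1 with TET1-si. This was the same order of libraries as for HSPA5, with a wider spread of 2.11-fold between the highest and the lowest. Under normoxia the log2 difference between TET1-si and scrambled cells was -0.93 (-0.95 to -0.91), the largest of any member in any comparison. It passed 2-fold once the libraries were rescaled by medians of ratios (-1.10) or by upper quartiles (-1.05). Under hypoxia the difference was -0.59 (-0.61 to -0.56). The hypoxia response was -0.49 (-0.51 to -0.47) in scrambled cells and -0.15 (-0.17 to -0.12) in TET1-si cells.

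Some features share the exons of HSP90B1, and it was not stated whether strand was kept in counting. The microRNA gene MIR3652 lies within them on the same strand and was listed at 4378 and 2258 FPKM in scrambled cells under normoxia and hypoxia and at 2106 and 1464 in TET1-si cells. UQCC6, on the opposite strand with 805 shared exon bases, was listed at 24.5, 15.7, 21.7 and 9.71 FPKM in the same order. Both had their lowest value in H-si and their highest in N-scr, as HSP90B1 did, and their part in its values was not tested. The copies HSP90B2P and HSP90B3P reached at most 0.1499 FPKM in any library.

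CALR (ENSG00000179218, calreticulin, chr19:13049392-13055303, plus strand) is the soluble lectin chaperone that binds glycoproteins still carrying a glucose. Scrambled cells had 511.3 FPKM under normoxia and 457.4 under hypoxia, against 476.8 and 438.0 for TET1-si cells. The libraries stood in nearly the order of the other chaperones, but the highest was 1.17-fold above the lowest. The log2 differences ran from -0.16 to -0.06, and those with hypoxia in TET1-si cells (-0.12) and with TET1-si under hypoxia (-0.06) turned to 0.01 under TPM. The ratio of HSP90B1 to CALR was accordingly 1.70 (normoxia) and 1.35 (hypoxia) in scrambled cells, but 0.956 and 0.941 in TET1-si cells. An antisense lncRNA, ENSG00000267458, shares 270 exon bases with CALR and was listed at 154.8 to 180.6 FPKM.

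DNAJB9 (ENSG00000128590, ERdj4, chr7:108210012-108215294, plus strand) is a J-domain co-chaperone that helps HSPA5 to repress IRE1. Levels were 7.45 FPKM under normoxia and 7.72 under hypoxia in scrambled cells, against 7.26 and 7.31 in TET1-si cells. From 362 to 418 reads a library stood behind these values, and the interval of each of its 4 differences included 0. The widest of those intervals, for TET1-si cells in hypoxia against normoxia, ran from -0.20 to 0.22, so that smaller differences were not detectable at this depth.

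ERO1L (ENSG00000197930, chr14:53106634-53162618, minus strand) is the oxidase that passes electrons from protein disulfide isomerases to oxygen. Scrambled cells had 138.8 FPKM under normoxia and 154.9 under hypoxia, whereas TET1-si cells had 166.9 and 113.1. Hypoxia therefore went with a higher level in scrambled cells and a lower level in TET1-si cells. The log2 difference was 0.16 (0.13 to 0.19) in the former and -0.56 (-0.59 to -0.53) in the latter. Subtracting the scrambled response from the TET1-si response gave -0.72 on the log2 scale (-0.76 to -0.68, by a normal approximation from the approximate reads). ERO1L was the only member past 1.5-fold lower on this measure, where 16.7% of all genes were. Under other scalings and pseudocounts the measure ranged from -0.72 to -0.65. Seen across hairpins, ERO1L was 1.20-fold higher in TET1-si cells under normoxia and 1.37-fold lower under hypoxia. A lncRNA on the opposite strand, ENSG00000258757, shares 581 exon bases with it and was listed at 2.97 and 11.6 FPKM in scrambled cells under normoxia and hypoxia and at 2.66 and 4.35 in TET1-si cells.

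PDIA4 (ENSG00000155660, ERp72, chr7:148700154-148725733, minus strand) is a protein disulfide isomerase that forms and rearranges disulfide bonds. In scrambled cells it was at 150.7 FPKM under normoxia and 101.9 under hypoxia, and in TET1-si cells at 91.6 and 56.8. Hypoxia and TET1-si thus each went with a lower level, and H-si, which had both, was 2.65-fold below N-scr, the widest spread among the 10. The log2 difference with hypoxia was -0.56 (-0.61 to -0.52) in scrambled and -0.69 (-0.75 to -0.63) in TET1-si cells. That with TET1-si was -0.72 (-0.77 to -0.67) under normoxia and -0.84 (-0.90 to -0.78) under hypoxia. Hence a spread of at least 2-fold over the 4 libraries was seen in 2 of the 10 genes, HSP90B1 and PDIA4, and in 49.7% of all genes tested.

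PDIA6 (ENSG00000143870, chr2:10923517-10978103, minus strand) is a further disulfide isomerase, which also helps to switch off IRE1. In scrambled cells its level was 231.1 FPKM under normoxia and 210.3 under hypoxia, and in TET1-si cells 237.7 and 188.3. The hypoxic libraries were both below the normoxic ones, with differences of -0.14 (-0.17 to -0.10) on the log2 scale in scrambled and -0.34 (-0.38 to -0.30) in TET1-si cells. The ratio of PDIA4 to PDIA6 was 0.652 and 0.485 in scrambled cells (normoxia and hypoxia) and 0.385 and 0.302 in TET1-si cells. The 2 isomerases therefore did not move in proportion. The protein-coding gene ATP6V1C2, on the opposite strand, shares 1033 of the 4096 exon bases of PDIA6. It was listed at 1.08 and 3.13 FPKM in scrambled cells under normoxia and hypoxia and at 1.69 and 3.62 in TET1-si cells. Its part in the values of PDIA6 was not tested.

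XBP1 (ENSG00000100219, chr22:29190543-29196585, minus strand) encodes the transcription factor that IRE1 activates by splicing its mRNA. Scrambled cells held 34.1 FPKM under normoxia and 24.8 under hypoxia and TET1-si cells 23.8 and 18.0, with the same highest and lowest library as HSPA5. The highest value was 1.90-fold above the lowest. The log2 differences with hypoxia were -0.46 (-0.59 to -0.34) and -0.40 (-0.55 to -0.25) in scrambled and TET1-si cells. Those with TET1-si were -0.52 (-0.65 to -0.40) under normoxia and -0.46 (-0.61 to -0.31) under hypoxia. The 4 intervals overlap, which leaves the sizes of the 4 differences indistinguishable by counting error alone.

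The 2 degradation genes went the other way with hypoxia. HERPUD1 (ENSG00000051108, chr16:56965960-56977798, plus strand) is a membrane protein that assembles the HRD1 ubiquitin ligase complex. Its level was 42.2 FPKM under normoxia and 56.4 under hypoxia in scrambled cells, against 43.4 and 59.6 in TET1-si cells, so that both hypoxic libraries lay above both normoxic ones. The log2 difference with hypoxia was 0.42 (0.35 to 0.49) in scrambled and 0.45 (0.38 to 0.53) in TET1-si cells. Between hairpins the differences were 0.08 (0.01 to 0.15) under hypoxia and 0.04 (-0.04 to 0.12) under normoxia, and their signs turned under median-of-ratios scaling (-0.04 and -0.13).

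SEL1L (ENSG00000071537, chr14:81937893-82000205, minus strand) is the adaptor that recruits substrates to HRD1. Scrambled cells were at 94.0 FPKM under normoxia and 106.9 under hypoxia, TET1-si cells at 106.1 and 131.9. N-scr was the lowest library and H-si the highest, the reverse of the chaperones. The log2 differences with hypoxia were 0.19 (0.16 to 0.22) in scrambled and 0.31 (0.29 to 0.34) in TET1-si cells. The ratio of HSPA5 to SEL1L was 2.17 (normoxia) and 1.496 (hypoxia) in scrambled cells, against 1.27 and 0.933 in TET1-si cells.

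As a group, 6 of the 10 genes were lower in hypoxia in scrambled cells and 7 of 10 in TET1-si cells, where 46.4% and 47.8% of all genes tested were below 0. The median log2 difference of the 10 was -0.15 and -0.14 in these comparisons, and that of all genes 0.05 and 0.03. The latter depended on expression level. Among genes with a mean of at least 5 FPKM, a limit that all 10 passed, it was -0.03 and -0.06. Rescaled to TPM, the medians of the 10 were -0.030 and -0.00132, while that of all genes rose to 0.16 with either hairpin. With TET1-si, 8 of 10 were lower under hypoxia and 6 of 10 under normoxia (42.9% and 39% of all genes), with medians of -0.27 and -0.07 against 0.10 and 0.15 for all genes. The medians of all genes show that the columns were not centred on each other. Under median-of-ratios scaling the 2 TET1-si medians of the 10 genes became -0.39 and -0.24. The study selected genes by 3 RNA-Seq criteria and also by criteria on promoter 5-hydroxymethylcytosine, which were not examined here. The RNA-Seq criteria required in scrambled cells a hypoxic level over 2 times that of TET1-si cells and over the normoxic level. They also required a normoxic level not below that of TET1-si cells. These RNA-Seq criteria were met by 0 of the 10 and by 0 of the 94 other ER genes measured, whereas 3.84% of all genes tested met them.

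Of the patterns over the 4 libraries, the closest pairs were CALR and PDIA6, CALR and DNAJB9, and HSPA5 and XBP1, at root mean square distances of 0.077, 0.089 and 0.10 between log2 profiles centred on their means. PDIA4 and HERPUD1 lay farthest apart, at 0.68. Among 7820 protein-coding genes with a mean of at least 10 FPKM, the 5 nearest to HSPA5 (distances 0.033 to 0.045) included ABCF1, SPATS2, APOPT1 and NAP1L4. The 5 nearest to ERO1L were PWWP2A, MLLT10, EXT1, APTX and RUSC1 (0.022 to 0.034). With 4 values a profile is short, and 105 genes lay within 0.1 of HSPA5 and 64 within 0.1 of ERO1L.

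The wider ER machinery was examined in 6 lists of 96 other genes, of which 94 were tested. TMX3 was listed at 0 in all 4 libraries and DERL3 was below 1 FPKM. In hypoxia 67 of 94 were lower in scrambled cells and 68 of 94 in TET1-si cells (46.4% and 47.8% of all genes tested), with medians of -0.26 and -0.25. Rescaling to TPM left 63 and 56 of the 94 below 0 and took the medians to -0.15 and -0.11 (0.16 for all genes with either hairpin), and upper-quartile scaling left 66 and 57 (-0.22 and -0.13). Genes of translocation into the ER and signal peptide removal were lower in 15 of 17 cases with either hairpin (medians -0.35 and -0.49). The other chaperones and co-chaperones were lower in 16 of 19 (-0.44 and -0.41), and the N-glycan and glucose trimming genes in 10 and 11 of 13 (-0.33 and -0.31). The other enzymes of disulfide bond formation were lower in 9 of 13 with either hairpin (-0.26 and -0.29). The degradation genes were divided, with 12 and 11 of 21 below 0 (-0.10 and -0.08). The signs of both degradation medians turned under rescaling to TPM (0.01 and 0.05), and that in TET1-si cells also under upper-quartile scaling (0.03). The medians of the 4 lists named before it lay between -0.35 and -0.14 under TPM.

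**Figure D4:**
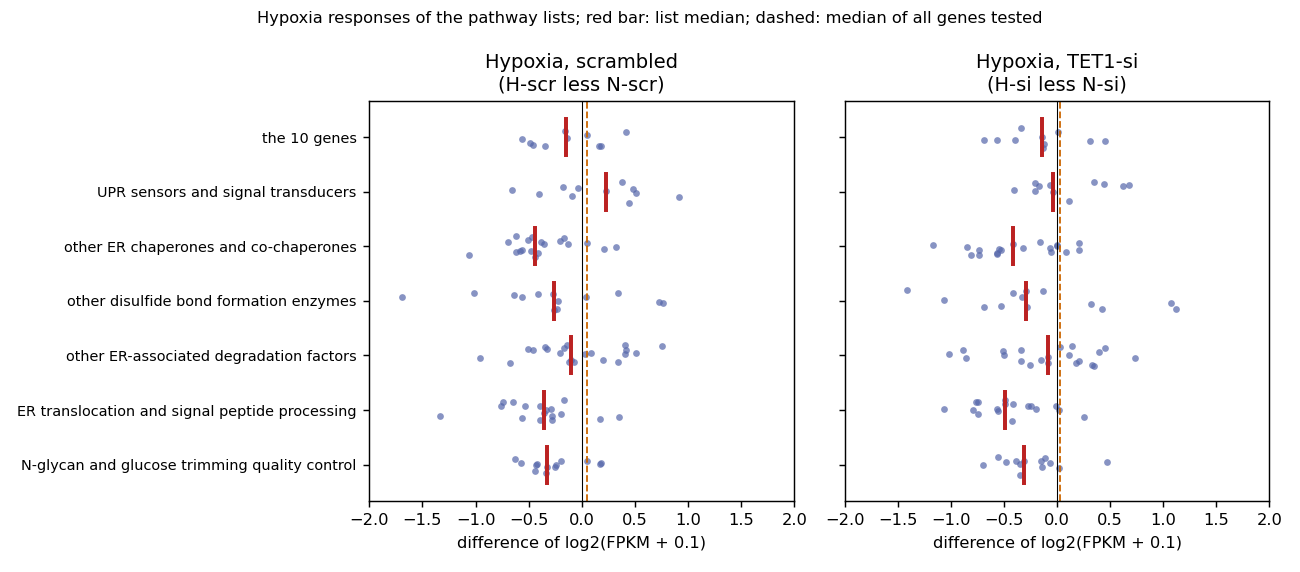
Hypoxia responses (difference of log2(FPKM + 0.1), x axes) of the 10 genes and of 6 lists of other ER genes in scrambled (left) and TET1-si cells (right). Each dot is a gene, red bars are list medians and the dashed line is the median of all genes tested. The medians of the translocation list are -0.35 and -0.49 and those of the sensor list 0.22 and -0.04, of which the latter turned to 0.10 under TPM, 0.07 under upper-quartile scaling and 0.11 at a mean of at least 5 FPKM.

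Across these lists 4 genes were at least 2-fold lower and 0 higher in the hypoxia response of scrambled cells (background 4.53% lower and 12.9% higher). In TET1-si cells 5 were lower and 2 higher (8.66% and 12.5%). TXNDC5, a disulfide isomerase, had 89.6 FPKM under normoxia and 27.6 under hypoxia in scrambled cells, against 53.4 and 19.9 in TET1-si cells. SRPRB, a subunit of the signal recognition particle receptor, had 118.0, 46.8, 75.8 and 36.1 in the same order. PRDX4, the peroxiredoxin of the ER, had 141.9, 70.0, 124.5 and 59.4. These 3 genes were past 2-fold lower in hypoxia with either hairpin. DNAJC1, an ER J-domain protein, passed 2-fold in scrambled cells (-1.07, beside -0.55 in TET1-si cells). SDF2L1, an HSPA5 cofactor, passed it in TET1-si cells (-1.17, beside -0.44 in scrambled cells), as did ERLIN1, a degradation factor (-1.02 beside -0.96). ERO1LB, the paralogue of ERO1L, went the other way from it in H-si. Its level lay between 2.71 and 3.45 FPKM in the other 3 libraries and was 7.61 in H-si, where ERO1L had its lowest level. CRELD1 had a log2 difference of 1.07 with hypoxia in TET1-si cells and 0.77 in scrambled cells.

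Between TET1-si and scrambled cells, 4 of the 94 genes were at least 2-fold higher and 2 lower under hypoxia (12% and 8.35% of all genes). Under normoxia 1 was higher and 1 lower (12.1% and 5.56%). CALU, a calcium-binding ER protein, was at 114.8 FPKM in scrambled and 53.7 in TET1-si cells under normoxia, and at 70.7 and 32.2 under hypoxia. CREB3L2, an ER-anchored transcription factor, was the gene that was 2-fold higher in both (1.24 and 1.26). CRELD1 and ERO1LB also passed 2-fold higher under hypoxia (1.02 and 1.42) and stood at 0.71 and 0.34 under normoxia.

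The sensors and signal transducers showed no common direction. EIF2AK3 (PERK) was higher in hypoxia, at 4.99 FPKM against 9.48 in scrambled cells and 6.44 against 8.21 in TET1-si cells. ATF6 was lower, at 15.6 and 9.87 in the scrambled libraries and 17.9 and 15.5 in the TET1-si ones. ERN1 (IRE1) was low in all 4 libraries, with 2.30 and 2.24 FPKM in the scrambled and 4.005 and 3.55 in the TET1-si libraries.

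Downstream of PERK, ATF4, the transcription factor whose translation PERK favours, was at 387.8 FPKM in scrambled and 221.1 in TET1-si cells under normoxia, and at 343.8 and 167.2 under hypoxia. It was thus lower in TET1-si cells, past 2-fold under hypoxia (-1.04). Its target DDIT3 (CHOP) was at 17.3, 11.1, 24.2 and 15.1 FPKM in the same order, so that it was higher in hypoxia and lower in TET1-si cells. TRIB3, a further target, was at 10.6 FPKM in N-scr and between 15.2 and 17.6 in the other 3 libraries. PPP1R15A (GADD34), which reverses the PERK signal, differed by at most 0.22 on the log2 scale. ATF6B, a relative of ATF6, was at 97.5 and 117.7 FPKM under normoxia (scrambled and TET1-si) and 132.7 and 188.0 under hypoxia. The proteases that cleave ATF6 differed, MBTPS1 being higher in hypoxia (0.38 and 0.62) and MBTPS2 at 15.2 FPKM in N-scr and 11.4 to 11.8 in the other libraries.

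Finally, the members were set beside the 25 protein-coding genes on either side of them along the chromosome, a comparison added after the values had been seen. Under hypoxia the 50 neighbours of HSP90B1 had a median TET1-si difference of -0.56, and HSP90B1 itself had -0.59, with 24 of the 50 below it. Of these neighbours 43 were below 0, where 42.9% of all genes tested were. The neighbours of HSPA5 had a median of -0.30 beside -0.38 for the gene, and those of SEL1L 0.30 beside 0.30. The part of the surrounding stretch of chromosome in these differences was not tested.

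Under normoxia the median of the HSP90B1 neighbours was -0.38 and that of the HSPA5 neighbours -0.23, and the genes themselves were lower, at -0.93 and -0.60. PDIA4 stood apart from its surroundings in both oxygen states. Its neighbours had medians of -0.21 under hypoxia and -0.17 under normoxia, beside -0.84 and -0.72 for the gene, and only 5 and 3 of the 50 were lower than it. XBP1 was likewise below its neighbours, at -0.46 beside -0.06 under hypoxia and -0.52 beside 0.03 under normoxia. ERO1L was below its neighbours under hypoxia, at -0.45 beside 0.06, and above them under normoxia, at 0.27 beside 0.08. CALR and HERPUD1 were below theirs under normoxia, at -0.10 beside 0.36 and 0.04 beside 0.34. PDIA6 was so in both oxygen states, at -0.16 beside 0.14 under hypoxia and 0.04 beside 0.25 under normoxia. DNAJB9 lay on the other side, at -0.08 beside -0.38 under hypoxia and -0.04 beside -0.39 under normoxia, with 37 and 41 of its 50 neighbours below it. The keratin genes KRT8 and KRT18, on the same chromosome as HSP90B1 but outside its 50 neighbours, were also lower in TET1-si cells. KRT18 had 1109 and 304.2 FPKM in scrambled and TET1-si cells under normoxia and 970.0 and 227.3 under hypoxia. KRT17, on chromosome 17, was lower too (-0.62 under hypoxia and -0.98 under normoxia). The other protein-coding genes tested on the chromosome of HSP90B1 had median differences of -0.18 under hypoxia and -0.13 under normoxia. For PDIA4, on chromosome 7, the chromosome medians were -0.32 and -0.26, lower than those of its 50 neighbours.

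**Figure D5:**
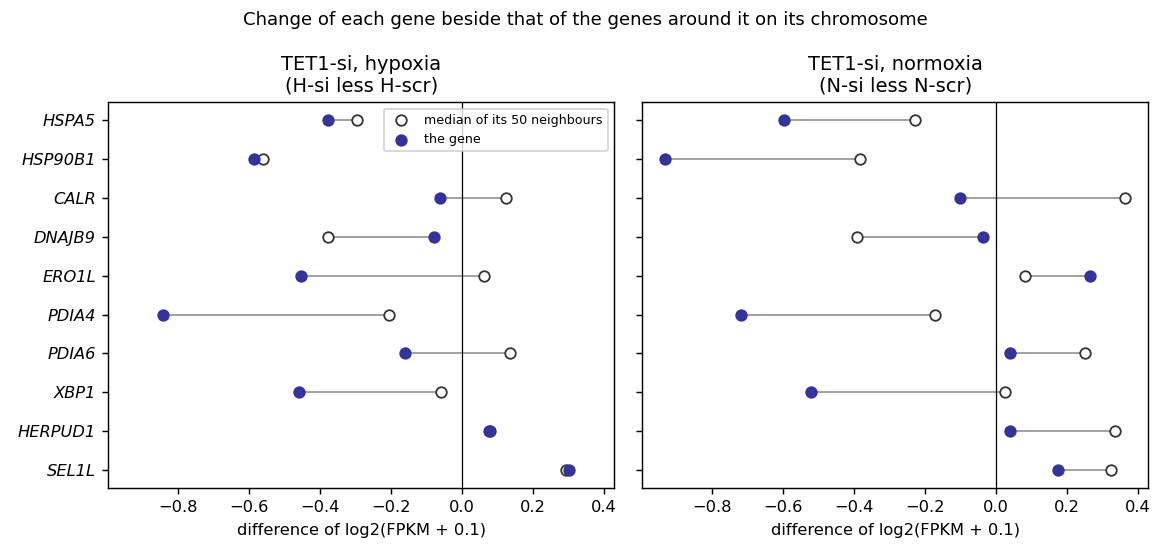
TET1-si less scrambled differences of log2(FPKM + 0.1) (x axes) under hypoxia (left) and normoxia (right) for the 10 genes (filled) and for the median of the 50 protein-coding genes around each (open). Filled and open symbols nearly coincide for HSP90B1, HERPUD1 and SEL1L under hypoxia and are far apart for PDIA4 in both panels.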

How the data were processed

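The values analysed were gene-level FPKM deposited by the authors, 1 column for each of 4 FaDu libraries. The authors had prepared TruSeq mRNA libraries, sequenced 100 bp reads on an Illumina HiSeq2000 and used TopHat/Cufflinks with Ensembl annotations on hg19. Tool versions are not given in the sources used here. The labels describe single-end and the methods paired-end reads.

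Differences were computed on log2(FPKM + 0.1), which understates changes of low genes, over 15057 genes with a mean of at least 1 FPKM. Rows whose gene ID stood on more than 1 row were left out. FPKM are not counts, so no count test was run. Depth was recovered from single-exon genes, whose low values are whole reads divided by depth and by length less 214 bp (97.1% to 98.1% whole within 0.05). Approximate reads used the canonical GENCODE v44lift37 transcript, and the exact 95% Clopper-Pearson intervals cover counting error only. Called meant a difference of at least 2-fold. The scripts were tested on simulated data. Each comparison set 1 library against 1, so no test was run. An additive fit of oxygen state and hairpin over the 4 libraries, which would leave 1 residual degree of freedom, was not made.

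Named were all 10 members, every sensor gene, each listed gene past 2-fold in any comparison, the 5 nearest profiles to HSPA5 and ERO1L, TET1 and hypoxia check genes, save 2 genes that are not reported here. Members and lists were chosen with earlier results of these data known. KRT18, ERLIN2, VCP and the genes sharing exons were named after their values were seen. Coordinates are hg19, promoter sequences are from RefSeq, and Python 3.11.15, numpy 2.4.6, pandas 2.3.3, scipy 1.17.1 and matplotlib 3.10.9 were used. Alternatives were other pseudocounts, scalings, fold limits and expression filters.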

Additional observations from a re-analysis of the deposited data

Results flagged for a closer look

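Of the 10 genes, ERO1L was flagged because its responses had opposite signs in the 2 settings of each factor, each beyond its counting interval. Hypoxia went with 0.16 in scrambled and -0.56 in TET1-si cells, and TET1-si with 0.27 under normoxia and -0.45 under hypoxia, a difference of -0.72 on the log2 scale. PDIA6 did so for TET1-si, with 0.04 under normoxia (0.00 to 0.08) and -0.16 under hypoxia, a difference of -0.20. The sign of the normoxic value of PDIA6 turned under median-of-ratios (-0.13) and upper-quartile scaling (-0.08), and those of ERO1L kept their direction under these scalings. Neither difference was tested, since each group had 1 library. The degradation genes ERLIN2 and VCP showed the same double change of sign beyond their counting intervals. ERLIN2 had -0.68 and 0.39 for hypoxia in scrambled and TET1-si cells, and -0.49 and 0.58 for TET1-si under normoxia and hypoxia. VCP had 0.09, -0.51, 0.37 and -0.22 in the same order. The share of all genes with this pattern was not counted, and it is not read as particular to ERO1L. Groups of 1 also gave no sample that could be set against others of its kind.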

How the results depend on the processing

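Of 250 single-gene differences under other scalings and pseudocounts, 156 stayed within their counting interval and 11 had another sign than as deposited. No paired analysis was possible because each comparison set 1 library against 1, which gives no replicate numbers to pair. Median-of-ratios scaling moved the median of the 10 genes to -0.20 (hypoxia, scrambled), -0.39 (TET1-si, hypoxia) and -0.24 (TET1-si, normoxia), turned HERPUD1 to -0.043 under hypoxia and PDIA6 to -0.13 under normoxia, and put 1 gene, HSP90B1, past 2-fold lower with TET1-si under normoxia. In that comparison the share of all called genes that were higher went from 68.6% to 56.0%. Upper-quartile scaling gave medians of -0.10 and -0.022 for hypoxia in scrambled and TET1-si cells (0.09 and 0.14 for all genes). For TET1-si under normoxia it gave -0.19, with PDIA6 at -0.080 and again 1 gene past 2-fold. TPM gave -0.030 and -0.00132 for hypoxia (0.16 for all genes with either hairpin) and -0.20 for TET1-si under hypoxia. It also turned HSPA5 to 0.0062 and CALR to 0.014 for hypoxia in TET1-si cells, and CALR to 0.0053 for TET1-si under hypoxia. A 1.5-fold limit called 1, 2 and 3 of the 10 genes lower (hypoxia in TET1-si cells, TET1-si under hypoxia, TET1-si under normoxia) and 1 in the difference of hypoxia responses, where 2-fold called 0.

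Set against the median of their neighbours, an alternative chosen after seeing the data, the 10 genes had medians of -0.043 (hypoxia, TET1-si), -0.13 (TET1-si, hypoxia), -0.33 (TET1-si, normoxia) and 0.16 (difference of hypoxia responses). HSP90B1 turned to 0.075 and CALR to 0.0098 for hypoxia in TET1-si cells, HERPUD1 to -0.0028 and DNAJB9 to 0.30 for TET1-si under hypoxia, DNAJB9 to 0.35, HERPUD1 to -0.30, PDIA6 to -0.21 and SEL1L to -0.15 for TET1-si under normoxia, and PDIA4 to 0.057 in the difference of hypoxia responses.

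Numbers of all genes called depended on the limits, as follows from the numbers tested. In the order hypoxia in scrambled cells, hypoxia in TET1-si cells, TET1-si under hypoxia and TET1-si under normoxia, 2619, 3187, 3065 and 2665 were called. A 1.5-fold limit called 5561, 6440, 6187 and 5527, no filter 6171, 7136, 7309 and 5998, and a mean of at least 5 FPKM 1371, 1836, 1670 and 1327. A pseudocount of 1 called 1724 in the first and 1743 in the last. Applied here to all rows of the deposited values, the study's RNA-Seq criteria took 2687 rows, and 337 at a mean of at least 5 FPKM. Neither is the number of genes that the study itself reported. Counting error was largest for DNAJB9 and next largest for XBP1, which had 640 to 1238 reads a library. The spread between cultures is unknown for all 10.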
